A study of Malus domestica with 99 samples.

Results

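In the cortex of 3 apple cultivars, 17 transcripts averaged at least 2-fold above their harvest level over days 7, 14 and 21 after picking. These transcripts did so to a similar extent whether or not the fruit had been treated with 1-MCP. They were chosen from 26306 predicted transcripts (identifiers beginning XM_) that had values in all 3 cultivars. In each cultivar the mean of days 7, 14 and 21 had to lie at least 1 log2 unit above harvest in 1-MCP fruit and in control fruit, both means had to be at least 5 on the log2 scale, and they had to differ by less than 0.6. The choice therefore rests on the harvest columns and on days 7, 14 and 21, and values from those columns are given as a description only. Of the transcripts examined, 0.0646% met the rule.

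RNA sequencing profiled fruit cortex of Golden Delicious, Granny Smith and Fuji in a study of crosstalk between the hormones ethylene and auxin. Treated fruit were held overnight with 1-MCP (1-methylcyclopropene) in a closed container and sampled at day 1, 7, 14 and 21 and at 2 months; control fruit were sampled at the same times without 1-MCP, and fruit at harvest served both arms of a cultivar. The labels list 99 libraries in 33 groups of 3, but the deposited columns are group means, so the spread between replicate fruit is unknown, as is the depth of the libraries. Low values returned to whole numbers when 3 libraries were assumed in 31 columns and 2 in the other 2. Those with 2 libraries are the day 14 control group and the 2-month 1-MCP group of Fuji, so these means rest on fewer libraries. The labels call the replicates biological, and do not say how the fruit were stored or from which trees they came. In whole cortex, a change in the makeup of the tissue and a change in the RNA of each cell cannot be told apart.

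Apple is a climacteric fruit, in which a burst of ethylene drives softening, aroma and colour change. Ethylene receptors in the endoplasmic reticulum membrane hold the response off until ethylene binds them, which lets EIN3-type transcription factors act. 1-MCP occupies the same receptors and so prevents ethylene from starting that response. How fully perception was blocked in these fruit was not measured, but 4 genes known from ethylene work were looked at as a check. ETR2, an ethylene receptor gene, was lower in 1-MCP than in control fruit at day 1 (mean difference -2.71, SE 0.279 over the 3 cultivars, limma adjusted p 0.00745) and at 2 months (mean difference -3.57, SE 0.0408 over the 3 cultivars, limma adjusted p 0.000689). AFS1, which makes the scent compound alpha-farnesene, was lower at 2 months (mean difference -8.52, SE 0.107 over the 3 cultivars, limma adjusted p 0.00058), as was the lipoxygenase gene LOX7a (mean difference -7.78, SE 0.956 over the 3 cultivars, limma adjusted p 0.00969). ACO1, an ethylene-forming ACC oxidase, was 14.13, 14.59 and 10.41 in 1-MCP fruit at 2 months and 16.12, 15.88 and 14.65 in control fruit of Golden Delicious, Granny Smith and Fuji, a difference that missed the threshold (limma adjusted p 0.0675). At day 1 AFS1, LOX7a and ACO1 were not called (limma adjusted p 0.123, 0.108 and 0.585). These calls too depend on the settings of the test, while the differences of ETR2, AFS1 and LOX7a stayed negative under each setting tried. The ETR2 call at day 1 was lost without the filter on low values, in plain limma and with the variance trend over the mean difference (limma adjusted p 0.129, 0.0856 and 0.298). At 2 months ETR2, AFS1 and LOX7a passed in plain limma (limma adjusted p 0.0167, 0.00734 and 0.039). Their calls were lost without the filter (limma adjusted p 0.0598, 0.0598 and 0.114) and with the trend over the mean difference (limma adjusted p 0.198 for each). Without Granny Smith the LOX7a call at 2 months was lost (limma adjusted p 0.0668) and AFS1 was called lower at day 1 (limma adjusted p 0.00167). Without Golden Delicious LOX7a was called lower at day 1 (limma adjusted p 0.0218). In the means of days 7, 14 and 21, which were not tested, 1-MCP minus control for ACO1 was -6.27, -7.80 and -6.82 in Golden Delicious, Granny Smith and Fuji. It was -8.96, -9.62 and -9.13 for AFS1, -7.50, -7.38 and -7.02 for LOX7a, and -2.38, -3.25 and -2.89 for ETR2. ACO1 in 1-MCP fruit averaged 9.31, 5.41 and 7.58 over those days, below its levels at 2 months.

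No role is given here to any of the 17 transcripts. Of them, 12 matched a protein-coding gene of the RefSeq table for the assembly GDT2T_hap1, each under a locus number (LOC) without a gene name, and 5 matched no gene of that table. Each of the 12 was the only entry of its gene in the expression tables. None of the matched genes lay next to another in the RefSeq gene order, and the closest pair, XM_008354882 and XM_008369220, stood 91 genes apart. Neither the expression tables nor the gene table pairs them with product names.

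**Figure D1:**
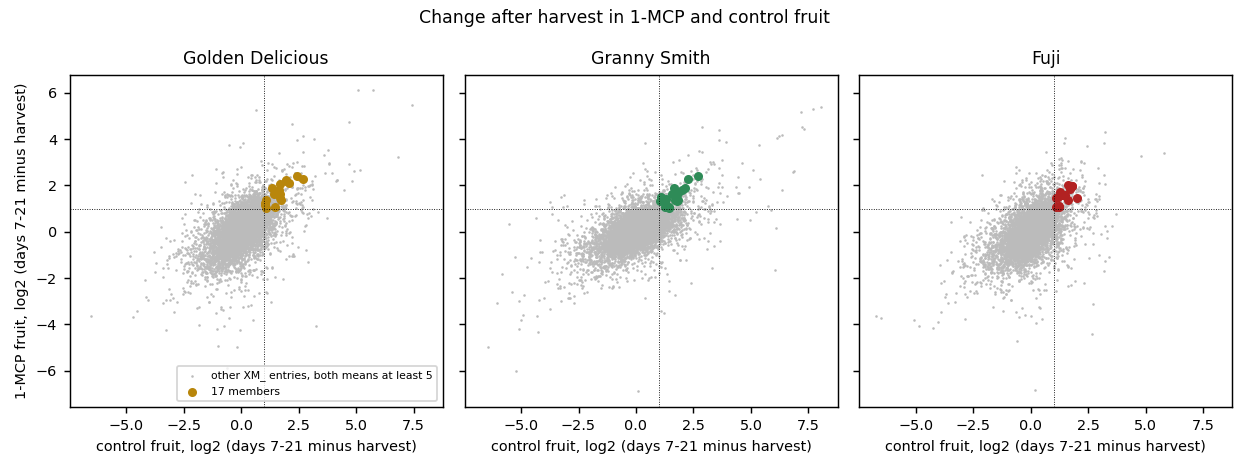
Change from harvest to the mean of days 7, 14 and 21 (log2) in 1-MCP fruit (vertical axis) against control fruit (horizontal axis), with one panel for each cultivar. Grey points are other XM_ transcripts whose means are both at least 5, coloured points are the 17 chosen ones, and dotted lines mark a change of 1; the chosen points lie above and to the right of both lines and close to equal change, as the rule requires.

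The rule, applied to a single cultivar, held for 205 transcripts when that was Golden Delicious, for 166 with Granny Smith and for 157 with Fuji. A change of at least 1 in each cultivar was found for 524 transcripts in 1-MCP fruit and 502 in control fruit, and for 106 in both. Of those 106, 44 had means of at least 5 throughout, and 17 of the 44 also kept the treatments within 0.6. The mirrored rule, a drop of at least 1 in both treatments from a harvest level of at least 5 with means within 0.6, held for 43. Among 27502 transcripts without Fuji values, 34 met the rule in Golden Delicious and Granny Smith, against 48 in those 2 cultivars among transcripts with Fuji values.

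Over days 7, 14 and 21 the 17 transcripts stood 1.24 to 2.16 log2 units above harvest on average over both treatments and all cultivars, which is 2.36- to 4.48-fold on the scale of the deposited means. The greatest mean change belonged to XM_008346644 (2.16), XM_008354882 (LOC103416648, 2.10) and XM_008360779 (2.07), and the next to XM_008348730 (LOC103409952, 1.75), XM_008361688 (LOC103423598, 1.71) and XM_008387270 (LOC103448039, 1.69). XM_008358187 (LOC103420123), XM_008347140, XM_008359366 and XM_008341016 (LOC103402278) followed at 1.59, 1.59, 1.58 and 1.51. Every one of the 17 was above harvest in all 18 single columns of those days, and 7 of 17 were at least 1 above harvest in each of the 18. Single columns ranged from 0.72 above harvest, in XM_008384412 (LOC103445404), to 3.15 above, in XM_008354882. Of all 20999 entries tested, 9.11% were above harvest in each of these columns and 0.214% at least 1 above; since the rule used the same columns, nothing is read from these shares. Levels are not compared between genes, since it is not settled whether the values are per length.

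XM_008354882 had the second greatest change, and its course was alike in all cultivars. In Golden Delicious its log2 level was 5.57 at harvest, and at days 1, 7, 14 and 21 and 2 months it was 6.73, 7.56, 7.82, 8.24 and 7.57 in 1-MCP fruit and 6.70, 7.73, 8.39, 8.72 and 7.96 in control fruit. In Granny Smith it stood at 5.80 at harvest, and at the same times at 6.58, 7.48, 7.66, 7.73 and 6.86 in 1-MCP fruit and 6.44, 7.63, 7.80, 7.91 and 7.18 in control fruit. Fuji began at 6.06 and gave 6.91, 7.81, 7.90, 8.36 and 6.86 in 1-MCP fruit and 7.10, 7.59, 7.82, 8.19 and 7.14 in control fruit. In all cultivars and both treatments the level was highest at day 21 and was still above harvest at 2 months.

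XM_008346644 and XM_008360779 changed almost in parallel. Across the 30 columns after harvest their changes from harvest differed by 0.14 log2 units on average and by at most 0.47, against a median of 0.62 over the 136 pairs of members. For XM_008346644, Golden Delicious started at 5.80 and then read 6.25, 7.39, 7.77, 8.51 and 6.81 in 1-MCP fruit and 6.49, 7.58, 7.86, 8.16 and 6.02 in control fruit. The Granny Smith values of XM_008346644 were 5.60 at harvest and then 6.34, 7.91, 8.04, 8.08 and 6.65 in 1-MCP fruit and 6.31, 8.40, 8.15, 8.28 and 7.18 in control fruit. In Fuji XM_008346644 was 4.96 at harvest and then 5.72, 6.41, 7.10, 7.26 and 5.02 in 1-MCP fruit and 5.64, 6.99, 6.75, 6.48 and 5.94 in control fruit. The level of XM_008360779 ran from 8.30 to 11.68 over the 33 columns. Neither transcript matched a gene of the RefSeq table, and whether their reads can be told apart was not tested.

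The treatments could differ on a single day even where their 3-day means were close. The difference of 1-MCP minus control on single days reached 0.93 in XM_008360779 and -0.86 in XM_008341016. At least 1 single day with a gap of 0.6 or more was seen in 9 of the 17 transcripts, and in XM_008363557 (LOC103425473) it was seen on 4 of the 9 combinations of day and cultivar. No single day had a gap of 1 or more. In XM_008363557 the level in 1-MCP fruit was above control fruit on all 9, by 0.04 to 0.80, whereas in XM_008341016 it was below control fruit on all 9, by -0.86 to -0.09. Both stayed inside the rule by little, with largest 3-day gaps of 0.53 and 0.54. XM_008372782 (LOC103434432) and XM_008354155 lay just outside, with gaps of 0.60 and 0.61. On the threshold for the change, XM_008384412 and XM_008387270 were just inside with smallest changes of 1.02 each, and XM_008362227 (LOC103424150) and XM_008360751 just outside with 0.99 each.

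**Figure D2:**
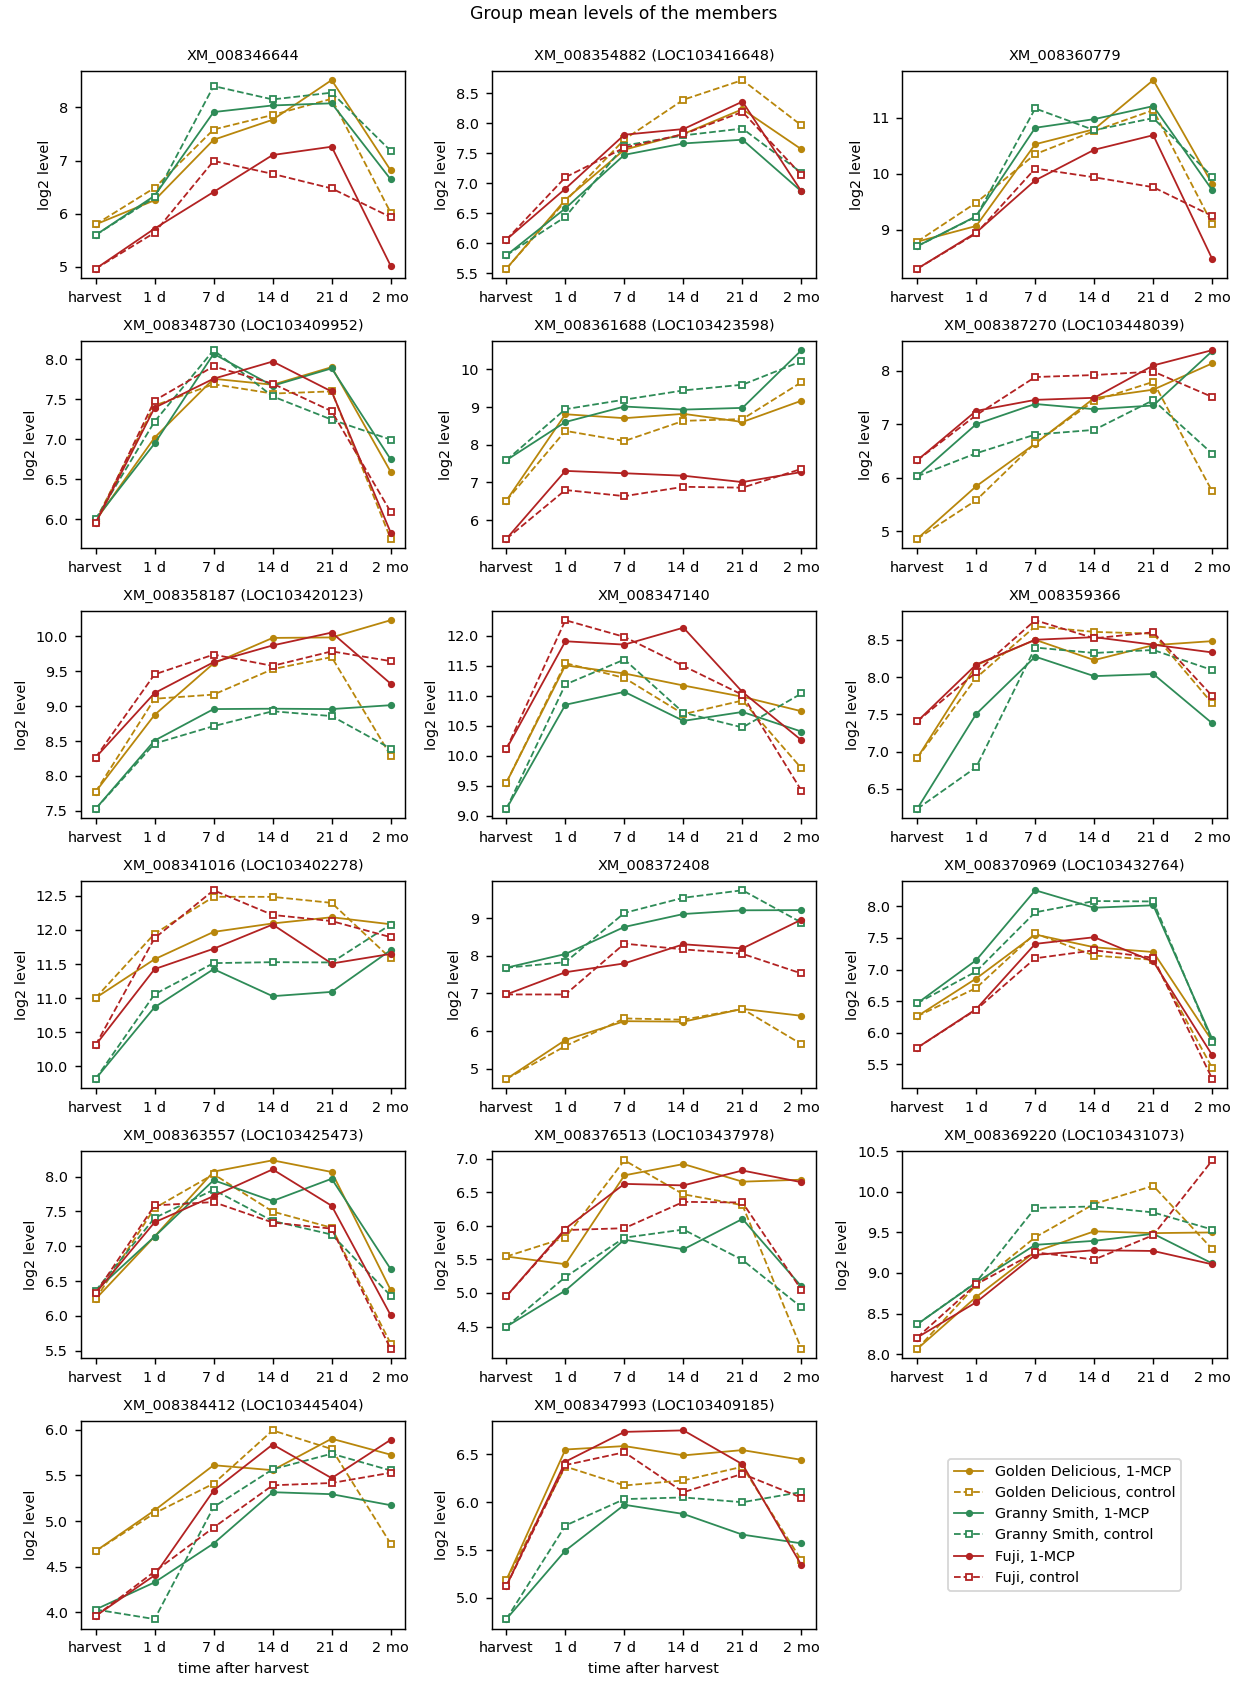
Group mean log2 level (vertical axis) of each of the 17 transcripts at harvest, day 1, 7, 14 and 21 and 2 months (horizontal axis, categories not to scale), for 1-MCP fruit (solid lines, filled circles) and control fruit (dashed lines, open squares) of 3 cultivars. All lines stand above their harvest level at days 7, 14 and 21, where the rule set a limit for the mean of those days only. At 2 months the solid line ends above the dashed one in every cultivar in 5 panels, those of XM_008387270, XM_008376513, XM_008372408, XM_008363557 and XM_008370969.

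Most of the set already stood above harvest at day 1. At that time 14 of 17 transcripts were above harvest in both treatments of all 3 cultivars, against 16.6% of all entries tested. The median change was 0.98, 0.78 and 0.92 in 1-MCP fruit and 0.94, 0.71 and 0.99 in control fruit of Golden Delicious, Granny Smith and Fuji. A change of at least 1 was reached by 8, 4 and 7 transcripts in 1-MCP fruit and by 8, 5 and 8 in control fruit of these cultivars. The background shares were 7.55%, 3.75% and 5.26% in 1-MCP fruit and 4.58%, 4.52% and 3.99% in control fruit. These values share the harvest columns with the rule, so a low harvest value enters both, and no test was made.

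XM_008347140 stood furthest above harvest at day 1 when its lowest value over cultivars and treatments is taken. In Golden Delicious it read 9.55 at harvest and at days 1, 7, 14 and 21 and 2 months 11.51, 11.37, 11.17, 10.98 and 10.74 in 1-MCP fruit and 11.55, 11.30, 10.70, 10.92 and 9.79 in control fruit. Granny Smith began at 9.11 and followed with 10.85, 11.07, 10.58, 10.73 and 10.40 in 1-MCP fruit and 11.19, 11.61, 10.72, 10.47 and 11.04 in control fruit. The Fuji level was 10.11 at harvest and then 11.91, 11.86, 12.14, 11.06 and 10.26 in 1-MCP fruit and 12.26, 11.98, 11.50, 11.02 and 9.42 in control fruit. Its day 1 level was 1.74 to 2.15 above harvest in all 6 combinations of cultivar and treatment. XM_008384412, by contrast, was -0.11 to 0.49 from harvest at day 1. Of 51 profiles per treatment (17 transcripts in 3 cultivars), the highest point was day 21 in 18 of 1-MCP fruit and 14 of control fruit. It was day 7 in 8 of 1-MCP fruit and 20 of control fruit, and day 14 in 12 and 7. For 2 months the counts were 11 of 1-MCP fruit and 7 of control fruit, and for day 1 they were 2 and 3. The rule favours a highest point at days 7, 14 or 21, and the profiles are not independent. The share over all entries was not worked out, so nothing is read from these counts.

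Columns at day 1 and at 2 months took no part in the choice of the 17, so the treatment was tested there, with limma on the difference per cultivar and the 3 cultivars as the units. Such a p weighs an effect against its spread between cultivars, not between fruit. For the p, limma draws the spread of each transcript towards that of all entries at a like level. The SE printed beside it is from the transcript's own differences, so the p does not follow from the SE alone. All 12 calls that follow depend on how limma models the spread: they were made with its variance trend taken over the mean level, which replaced a trend over the mean difference after that had called 0 of the 17 in every comparison. Plain limma, and limma without the filter on low values, also called 0 of the 17. The loss was not particular to them. Over all entries, the trend over the mean difference and the fit without the filter called 0 in every comparison. Plain limma called 0 of all 20999 entries at day 1 and 156 to 310 per direction in the other comparisons. At day 1, 2 of 17 transcripts were lower in 1-MCP fruit and 0 were higher, against 4.09% lower and 4.48% higher of all 20999 entries. Without Granny Smith XM_008361688 was called higher, by 0.47 (limma adjusted p 0.0231), and 1 was called lower. Of all 20999 entries, 432 were then called higher and 491 lower. Without either other cultivar 0 of the 17 were called. Over all entries 208 were called higher and 283 lower without Golden Delicious, and 306 and 375 without Fuji. In the fit of all 3 cultivars, 4 of the 17 were lower and 3 higher at an unadjusted limma p under 0.05. The share of all entries at that p was not worked out, so nothing is read from these counts. The median difference of the 17 was -0.04, with a range of -0.34 to 0.33, and the median of all entries was near 0. The 9 transcripts with the same sign in all cultivars were 4 above and 5 below control fruit, against 23.3% and 23.0% of all entries.

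XM_008341016 was lower in 1-MCP fruit at day 1. Its level at that time was 11.57, 10.87 and 11.43 in 1-MCP fruit and 11.95, 11.06 and 11.88 in control fruit of Golden Delicious, Granny Smith and Fuji (mean difference -0.34, SE 0.0782 over the 3 cultivars, limma adjusted p 0.0223). XM_008363557 was lower too, at 7.14, 7.14 and 7.34 in 1-MCP fruit and 7.55, 7.41 and 7.59 in control fruit (mean difference -0.31, SE 0.0514 over the 3 cultivars, limma adjusted p 0.0482). In XM_008363557 the order of the treatments was thus opposite to that of days 7, 14 and 21. For XM_008341016 the adjusted p was 0.146 without Golden Delicious, 0.0231 without Granny Smith and 0.151 without Fuji; for XM_008363557 these were 0.213, 0.116 and 0.166.

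**Figure D3:**
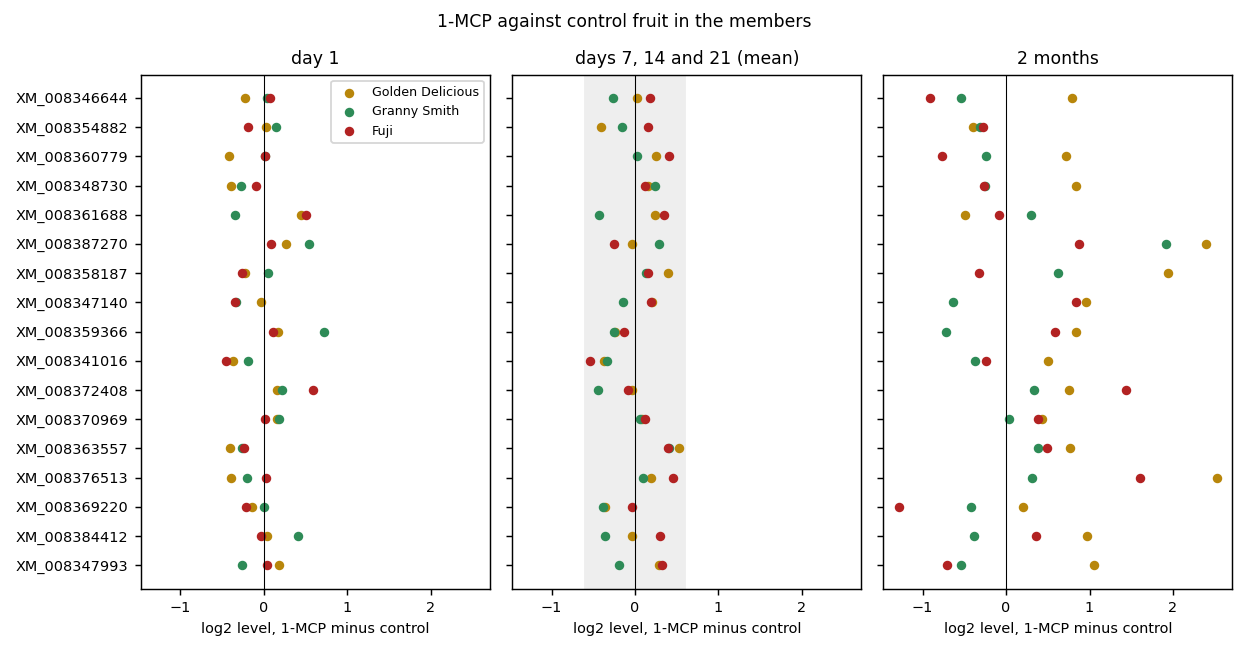
Log2 level of 1-MCP minus control fruit (horizontal axis) for each of the 17 transcripts (rows) at day 1, over days 7, 14 and 21 and at 2 months, with one point for each cultivar. The grey band marks the limit of 0.6 that the rule set for the middle panel; at 2 months the points spread from -1.28 to 2.52, against -0.45 to 0.71 at day 1.

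The median size of the gap between the treatments over the 17, whatever its sign, was 0.80 at 2 months and 0.23 at day 1 in Golden Delicious. In Granny Smith it was 0.38 at 2 months and 0.22 at day 1, and in Fuji 0.59 at 2 months and 0.10 at day 1. Over all entries it was 0.50, 0.37 and 0.41 at 2 months and 0.22, 0.24 and 0.17 at day 1 in the same cultivars. In Golden Delicious 15 of 17 were above control fruit in 1-MCP fruit, with a median of 0.80, where 56.7% of all entries were above and the median of all entries was 0.12. In Granny Smith 7 of 17 were above with a median of -0.25, and in Fuji 8 of 17 with a median of -0.08, where 51.5% and 52.7% of all entries were above. A gap of at least 1 upwards was found in 4, 1 and 2 of the 17 in Golden Delicious, Granny Smith and Fuji, against 14.0%, 9.54% and 9.65% of all entries. Downwards it was found in 0, 0 and 1, against 11.4%, 8.33% and 9.19%. The Fuji 1-MCP column at 2 months is a mean of 2 libraries. The difference between cultivars was not tested, as each gives a single value at 2 months.

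Across cultivars 1 of 17 was called higher in 1-MCP fruit at 2 months and 0 lower, against 4.37% and 3.81% of all entries. Of the 17, 5 were above control fruit in all 3 cultivars and 1 was below in all 3, against 29.8% and 22.6% of all entries, so the 5 are near the background share. The 1 below was XM_008354882. At an unadjusted p under 0.05 in limma, 4 were higher and 1 was lower. Nothing is read from these 2 counts, as the share of all entries at that p was not worked out. The transcript called was XM_008387270, whose levels in Golden Delicious were 4.86 at harvest and 5.84, 6.64, 7.49, 7.65 and 8.14 in 1-MCP fruit and 5.58, 6.65, 7.44, 7.79 and 5.74 in control fruit at days 1, 7, 14 and 21 and 2 months. Granny Smith gave 6.03 at harvest and then 7.00, 7.38, 7.28, 7.35 and 8.37 in 1-MCP fruit and 6.46, 6.81, 6.90, 7.45 and 6.45 in control fruit. For Fuji the values were 6.33 and then 7.25, 7.46, 7.50, 8.10 and 8.39 in 1-MCP fruit and 7.17, 7.88, 7.92, 7.99 and 7.51 in control fruit. At 2 months XM_008387270 was higher in 1-MCP fruit in all 3 cultivars, by 2.39 (Golden Delicious), 1.92 (Granny Smith) and 0.88 (Fuji) (mean difference 1.73, SE 0.448 over the 3 cultivars, limma adjusted p 0.0409). The call was lost at adjusted p 0.0573 without Golden Delicious and 0.159 without Granny Smith, and it passed at 0.0451 without Fuji. Its highest level in 1-MCP fruit was the one at 2 months in every cultivar, and in control fruit the one at day 21.

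XM_008376513 (LOC103437978) had 1-MCP values above control values in all cultivars, but the difference did not pass. Its level at 2 months was 6.69, 5.10 and 6.65 in 1-MCP fruit and 4.17, 4.79 and 5.04 in control fruit of Golden Delicious, Granny Smith and Fuji (mean difference 1.48, SE 0.641 over the 3 cultivars, limma adjusted p 0.104). XM_008358187 was apart by 1.94 in Golden Delicious and by -0.32 in Fuji. XM_008369220 (LOC103431073) had the widest gap downwards, with 9.11 in 1-MCP fruit and 10.39 in control fruit of Fuji, a difference of -1.28; that 1-MCP column is a mean of 2 libraries. In XM_008359366 the sign varied, being 0.84 for Golden Delicious, -0.71 for Granny Smith and 0.59 for Fuji.

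The change from day 1 to 2 months was tested within each treatment, again on columns that the rule did not use. In 1-MCP fruit 3 of 17 were called higher and 3 lower at 2 months, against 7.8% and 8.81% of all entries. In control fruit 1 was called higher and 2 lower, against 3.99% and 6.07%. The median change of the 17 was 0.36 in 1-MCP fruit and 0.21 in control fruit, beside 0.04 and -0.02 over all entries. By cultivar, the medians in 1-MCP fruit were 0.56 in Golden Delicious, 0.28 for Granny Smith and -0.03 for Fuji. Above 0 were 12, 12 and 8 of 17, against 53.1%, 50.25% and 52.4% of all entries. In control fruit the medians were -0.38, 0.65 and 0.04. There 5, 10 and 10 were above 0, against 46.2%, 49.0% and 50.0% of all entries. Whether the cultivars differ was not tested, and the 2-month 1-MCP values of Fuji rest on 2 libraries. Passing in one treatment and not in the other does not show that the treatments differ.

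XM_008370969 (LOC103432764) and XM_008363557 fell in both treatments. In Golden Delicious XM_008370969 read 6.26 at harvest and 6.86, 7.55, 7.35, 7.28 and 5.86 in 1-MCP fruit and 6.71, 7.57, 7.22, 7.15 and 5.44 in control fruit at days 1, 7, 14 and 21 and 2 months. Granny Smith values of XM_008370969 were 6.46 and then 7.15, 8.26, 7.98, 8.02 and 5.90 in 1-MCP fruit and 6.97, 7.91, 8.09, 8.08 and 5.86 in control fruit. In Fuji they were 5.76 and then 6.37, 7.41, 7.51, 7.13 and 5.64 in 1-MCP fruit and 6.36, 7.18, 7.31, 7.19 and 5.26 in control fruit. XM_008370969 ended below harvest in all 6 combinations of cultivar and treatment, by -0.82 to -0.12. The change from day 1 was -0.99 (Golden Delicious), -1.25 (Granny Smith) and -0.73 (Fuji) in 1-MCP fruit (mean difference -0.99, SE 0.15 over the 3 cultivars, limma adjusted p 0.0158) and -1.27 (Golden Delicious), -1.11 (Granny Smith) and -1.10 (Fuji) in control fruit (mean difference -1.16, SE 0.055 over the 3 cultivars, limma adjusted p 0.0223). With a cultivar left out the adjusted p lay between 0.0439 and 0.149 in 1-MCP fruit, passing only without Granny Smith, and between 0.0824 and 0.174 in control fruit.

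XM_008363557 read 6.24 at harvest in Golden Delicious and then 7.14, 8.07, 8.23, 8.07 and 6.37 in 1-MCP fruit and 7.55, 8.03, 7.50, 7.27 and 5.60 in control fruit. Its Granny Smith levels were 6.36 and then 7.14, 7.95, 7.65, 7.97 and 6.67 in 1-MCP fruit and 7.41, 7.81, 7.36, 7.17 and 6.29 in control fruit. Fuji levels of XM_008363557 were 6.32 and then 7.34, 7.72, 8.10, 7.58 and 6.01 in 1-MCP fruit and 7.59, 7.63, 7.34, 7.25 and 5.52 in control fruit. From day 1 to 2 months it changed by -0.77 (Golden Delicious), -0.47 (Granny Smith) and -1.34 (Fuji) in 1-MCP fruit (mean difference -0.86, SE 0.254 over the 3 cultivars, limma adjusted p 0.036) and by -1.95 (Golden Delicious), -1.12 (Granny Smith) and -2.06 (Fuji) in control fruit (mean difference -1.71, SE 0.298 over the 3 cultivars, limma adjusted p 0.0241). Control fruit of all cultivars ended below harvest, and of 1-MCP fruit only Fuji did. With a cultivar left out the adjusted p was 0.0424 to 0.198 in 1-MCP fruit, passing only without Granny Smith, and 0.0675 to 0.184 in control fruit. XM_008347140 also fell in 1-MCP fruit, by -0.77 (Golden Delicious), -0.45 (Granny Smith) and -1.65 (Fuji) (mean difference -0.96, SE 0.361 over the 3 cultivars, limma adjusted p 0.0475), while its change in control fruit did not pass (mean difference -1.59, SE 0.784 over the 3 cultivars, limma adjusted p 0.113). The call was lost at adjusted p 0.208 without Golden Delicious and 0.106 without Fuji, and it passed at 0.0488 without Granny Smith.

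**Figure D4:**
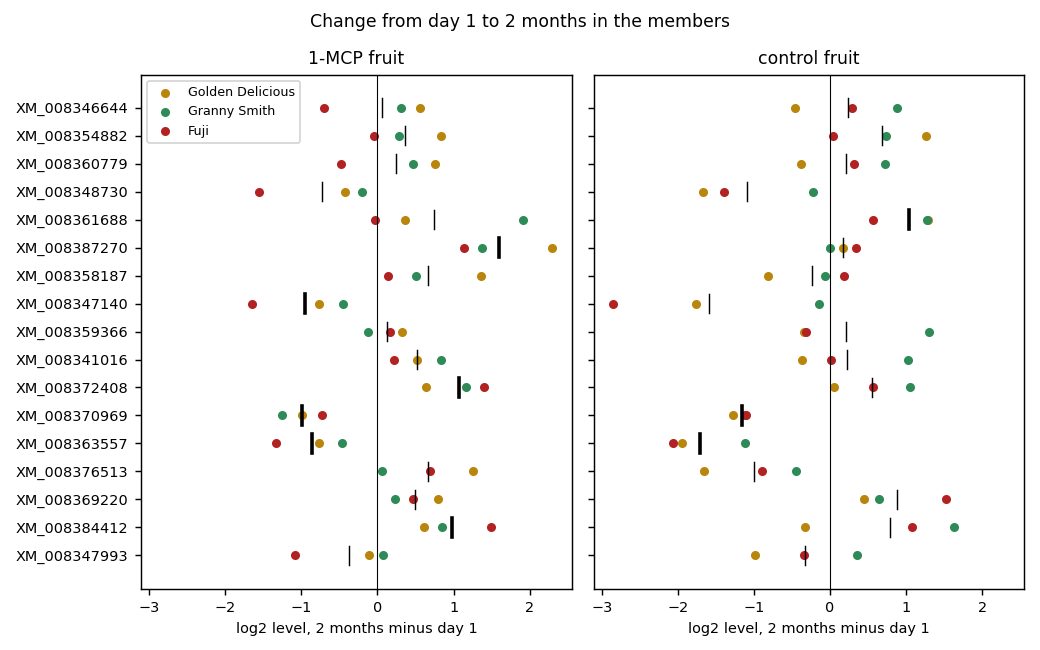
Log2 change from day 1 to 2 months (horizontal axis) for each of the 17 transcripts (rows) in 1-MCP fruit (left) and control fruit (right), with one point for each cultivar and a bar at their mean, heavy where limma's adjusted p is under 0.05. The means run from -0.99 to 1.60 in 1-MCP fruit and from -1.71 to 1.04 in control fruit.

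XM_008361688 was higher at 2 months than at day 1 in control fruit. It read 6.52 at harvest in Golden Delicious and 8.81, 8.71, 8.82, 8.60 and 9.17 in 1-MCP fruit and 8.37, 8.10, 8.63, 8.68 and 9.66 in control fruit at days 1, 7, 14 and 21 and 2 months. Granny Smith showed 7.59 and then 8.60, 9.01, 8.93, 8.98 and 10.51 in 1-MCP fruit and 8.94, 9.20, 9.44, 9.59 and 10.22 in control fruit. The Fuji readings of XM_008361688 were 5.50 and then 7.31, 7.24, 7.18, 7.01 and 7.28 in 1-MCP fruit and 6.80, 6.64, 6.88, 6.86 and 7.36 in control fruit. The change from day 1 to 2 months in control fruit was 1.29 (Golden Delicious), 1.27 (Granny Smith) and 0.56 (Fuji) (mean difference 1.04, SE 0.241 over the 3 cultivars, limma adjusted p 0.0422); in 1-MCP fruit the change did not pass (mean difference 0.75, SE 0.592 over the 3 cultivars, limma adjusted p 0.206). The adjusted p was 0.152 without Golden Delicious, 0.143 without Granny Smith and 0.164 without Fuji, past the threshold in none of these.

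In 1-MCP fruit XM_008387270, XM_008372408 and XM_008384412 were higher at 2 months than at day 1. XM_008387270 rose by 2.30 (Golden Delicious), 1.37 (Granny Smith) and 1.14 (Fuji) (mean difference 1.60, SE 0.355 over the 3 cultivars, limma adjusted p 0.0157), whereas in control fruit its change was 0.17 (limma adjusted p 0.507). XM_008372408, at 6.41, 9.21 and 8.96 in 1-MCP fruit at 2 months and 5.76, 8.05 and 7.56 at day 1, rose in each cultivar (mean difference 1.07, SE 0.223 over the 3 cultivars, limma adjusted p 0.0179). XM_008384412 stood at 5.73, 5.17 and 5.89 at 2 months and 5.12, 4.33 and 4.41 at day 1 (mean difference 0.98, SE 0.262 over the 3 cultivars, limma adjusted p 0.0416). Both were higher at 2 months in all 3 cultivars. Their mean changes in control fruit were positive too, but were not called. XM_008372408 changed there by 0.55 (limma adjusted p 0.175) and rose in every cultivar. XM_008384412 changed there by 0.79 (limma adjusted p 0.263), although its Golden Delicious value was -0.33. With a cultivar left out, the adjusted p in 1-MCP fruit was 0.0394 to 0.111 for XM_008387270, passing only without Granny Smith. It was 0.0564 to 0.107 for XM_008372408 and 0.0894 to 0.163 for XM_008384412.

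At 2 months 12 of 17 stood above harvest in both treatments of all cultivars, against 17.0% of all entries, a comparison that shares the harvest columns with the rule. In Golden Delicious 14 of 17 were still at least 1 above harvest in 1-MCP fruit and 3 of 17 in control fruit, where the shares of all entries were 12.1% and 10.3%. Granny Smith had 11 in 1-MCP fruit and 11 in control fruit, and Fuji 7 in each. The shares of all entries were 10.7% in 1-MCP and 13.7% in control fruit of Granny Smith, and 10.4% in 1-MCP and 11.8% in control fruit of Fuji. The median change from harvest was 1.19 with 1-MCP and 0.32 without it in Golden Delicious, 1.07 in 1-MCP and 1.25 in control fruit of Granny Smith, and 0.90 in 1-MCP and 0.94 in control fruit of Fuji. In Fuji 1-MCP fruit 7 of the 17 lay between -0.32 and 0.22 of harvest by then, and the other 10 were at least 0.80 above it. That column is a mean of 2 libraries. The share of all entries within 0.5 of harvest, the limit used, was not worked out, nor was the count in other columns. Nothing particular to that column is therefore read from the 7. Members lay as near to harvest elsewhere at 2 months. XM_008346644 and XM_008384412 were 0.22 and 0.08 above it in control fruit of Golden Delicious, and XM_008376513 was 0.09 above it in control fruit of Fuji. Below harvest were 3 of 17 in 1-MCP fruit and 3 of 17 in control fruit of Fuji, against 44.9% and 47.3% of all entries. Among the 7 were XM_008346644 at 0.06 and XM_008360779 at 0.17, which had the first and the third greatest mean change over days 7, 14 and 21. The others were XM_008363557, XM_008370969, XM_008348730, XM_008347140 and XM_008347993 (LOC103409185), at -0.32, -0.12, -0.12, 0.15 and 0.22.

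A further 121 transcripts with a change of at least 1 in control fruit of each cultivar, and control and 1-MCP means of at least 5, did not reach 1 in 1-MCP fruit of each cultivar. At day 1 the median of 1-MCP minus control was -0.04, 0.01 and 0.01 for the 17 in Golden Delicious, Granny Smith and Fuji, and -0.25, -0.09 and -0.16 for the 121. At 2 months it was 0.80, -0.25 and -0.08 for the 17 and -0.18, -0.60 and -0.56 for the 121. Both sets were chosen on days 7, 14 and 21, and the difference between them was not tested.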

How the data were processed

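RNA from fruit cortex was extracted with a plant total RNA kit and made into non-directional libraries that were sequenced as 100-bp reads, per the labels' protocols. Without strand, reads of overlapping genes cannot be told apart. The submitters' processing notes name STAR 2.5.1a (an aligner) and HTSeq (a read counter), with no order or settings; the genome build is not given in the sources used here. The authors deposited log2 group means, 1 column per group, with a floor of -1; their tables are named for FPKM, but every low value (between -1 and 1) was, within 0.01, the geometric mean of whole numbers with 0.5 entered for 0, over 97 libraries in all. Depth is unknown, and no counts were used.

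The 3 tables were joined by transcript. Members and gene lists were chosen with earlier results of these data known. The lists by product name, the cell type markers and the promoter motifs could not be applied with the gene table at hand. Differences per cultivar were tested with limma 3.58.1 in R 4.3.3 (robust, with the variance trend over the mean level, which replaced limma's default trend over the mean difference after that had called none of the members), on 20999 entries with a log2 value of at least 2 in at least 3 of 33 columns, all 17 members among them. Benjamini-Hochberg adjusted p under 0.05 was called, two-sided. Standard errors are over 3 cultivars and are taken before limma's adjustment of the spread, which enters the p only. The text names the 10 members with the greatest mean change, up to 3 called members per direction of each comparison, the transcripts next to a threshold and 4 check genes; other members were named after their values were seen.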

Additional observations from a re-analysis of the deposited data

How the results depend on the processing

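No paired analysis was possible because the deposited columns are group means and carry no replicate numbers; the tests pair groups by cultivar only. Of the 12 calls among the 17 transcripts, 12 were kept with the differences centred on their median, 12 under a stricter filter (log2 of 4 or more in 6 columns or more) and 11 with 4 added on the linear scale. All were lost, with 0 calls, without a filter on low values and in limma without its trend and robust options. The variance trend taken over the mean difference also gave 0 calls. Every call thus rests on the filter and on the trend over the mean level, which was adopted after seeing the data and that count of 0. Over all entries, too, 0 were called without the filter and with the trend over the mean difference. Limma without its options called 0 of all entries at day 1 and 156 to 310 per direction elsewhere. In these settings, in the order named, 14, 20 and 20 results had an unadjusted p under 0.05, against 31. The shares over all entries at that p were not worked out. The cause of the lost calls was not tested. Without Golden Delicious 0 of the 12 calls were kept, without Granny Smith 5 and without Fuji 1. Some of these fits called none of all 20999 entries from day 1 to 2 months. That was so in 1-MCP fruit without Golden Delicious, and in control fruit without Granny Smith or without Fuji. The other fits with a cultivar left out called 4 to 1155 of all entries per direction. With a cultivar left out, the number called at day 1 ran from 0 to 1 higher and from 0 to 1 lower in 1-MCP fruit, and at 2 months from 0 to 1 higher with 0 lower; from day 1 to 2 months it ran from 0 to 1 higher and from 0 to 3 lower in 1-MCP fruit, and was 0 in both directions in control fruit. No call changed direction under any of these.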
